A study of Mus musculus with 8 samples.

Results

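The surface proteins by which dendritic cells raise or restrain T cells were examined through 10 genes, measured in CD103+ CD11b+ conventional dendritic cells (cDC) sorted from mouse mesenteric lymph nodes. The genes are Cd80, Cd86, Icosl, Cd274, Pdcd1lg2, Cd276, Pvr, Cd200, Lgals9 and Havcr2. Each was taken by name from the platform's annotation, among probe sets that name a single gene, and each had 1 probe set. They are 10 of 22180 genes measured. Each of 2 genotypes, wild type and hBcl-2 transgene, was measured on 4 of the 8 arrays, and the wild-type mice were littermates. In the transgenic mice (DChBcl-2 in the labels), human BCL2, which blocks the mitochondrial route of apoptosis, is driven by the promoter of CD11c, an integrin of dendritic cells that some other leukocytes also carry. All mice were male, C57BL6 and 8 weeks old, and received a control chow diet. An array held material pooled from 2 to 3 samples of a genotype, n = 4 pools per group. As the labels do not tell how animals were divided among pools, p-values measure the spread between these pools.

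A T cell needs a second signal beside its antigen receptor to respond, and dendritic cells give it through the B7 family. CD80 and CD86 bind CD28, which stimulates, and CTLA-4, which restrains. ICOS ligand (Icosl) binds ICOS on activated T cells, while PD-L1 (Cd274) and PD-L2 (Pdcd1lg2) bind the inhibitory receptor PD-1. Other pairs work beside them: the poliovirus receptor CD155 (Pvr) binds activating CD226 and inhibitory TIGIT and CD96, CD200 binds the inhibitory receptor CD200R on myeloid cells, and galectin-9 (Lgals9) binds TIM-3 (Havcr2), a receptor that cDC carry as well. Maturation, during which cDC travel from the gut to its nodes, is known to raise many of these ligands.

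Values are deposited log2 signals, so a difference of 1 is 2-fold. The transgene is human and the probes are made for mouse transcripts, so the array does not check the genotype. Mouse Bcl2 was at 6.11 ± 0.40 in wild-type and 6.86 ± 0.34 in transgenic arrays (SD, n = 4; limma adjusted p = 0.139). Among cDC markers, Itgax, Flt3, Dpp4, Ccr7 and the class II genes were bright in both groups, while the transcripts of the sorting markers CD103 (Itgae, 5.66 and 5.40) and CD11b (Itgam, 5.57 and 5.58) were dim. Transgenic replicate 4 stood apart: its probe set values had an SD of 2.00, and those of the remaining 7 arrays 2.07 to 2.11. Results that rest on it are given without it. In a pool of sorted cells, a change in the share of cells that carry a transcript and a change per cell cannot be told apart.

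Pvr and Cd274 fell in transgenic cDC, and none of the 10 genes rose. The log2 difference, transgenic minus wild type, was -1.30 (SE 0.13) for Pvr and -0.75 (SE 0.12) for Cd274. These 2 of 10 compare with 0.848% of all genes that passed limma's test as lower, at an adjusted p below 0.05 over all genes, and 0.839% that passed as higher. Icosl and Pdcd1lg2 were also lower on every transgenic array than on any wild-type array but did not pass, which makes 4 of 10 without overlap and lower against 4.94% of all genes. The median difference of the 10 genes was -0.39 against -0.00 over all genes, and 7 were negative against 50.3% of all genes. At an unadjusted p below 0.05 in limma there were 5 of the 10, all lower, and 0 higher, against 13.2% of all genes in either direction.

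**Figure D1:**
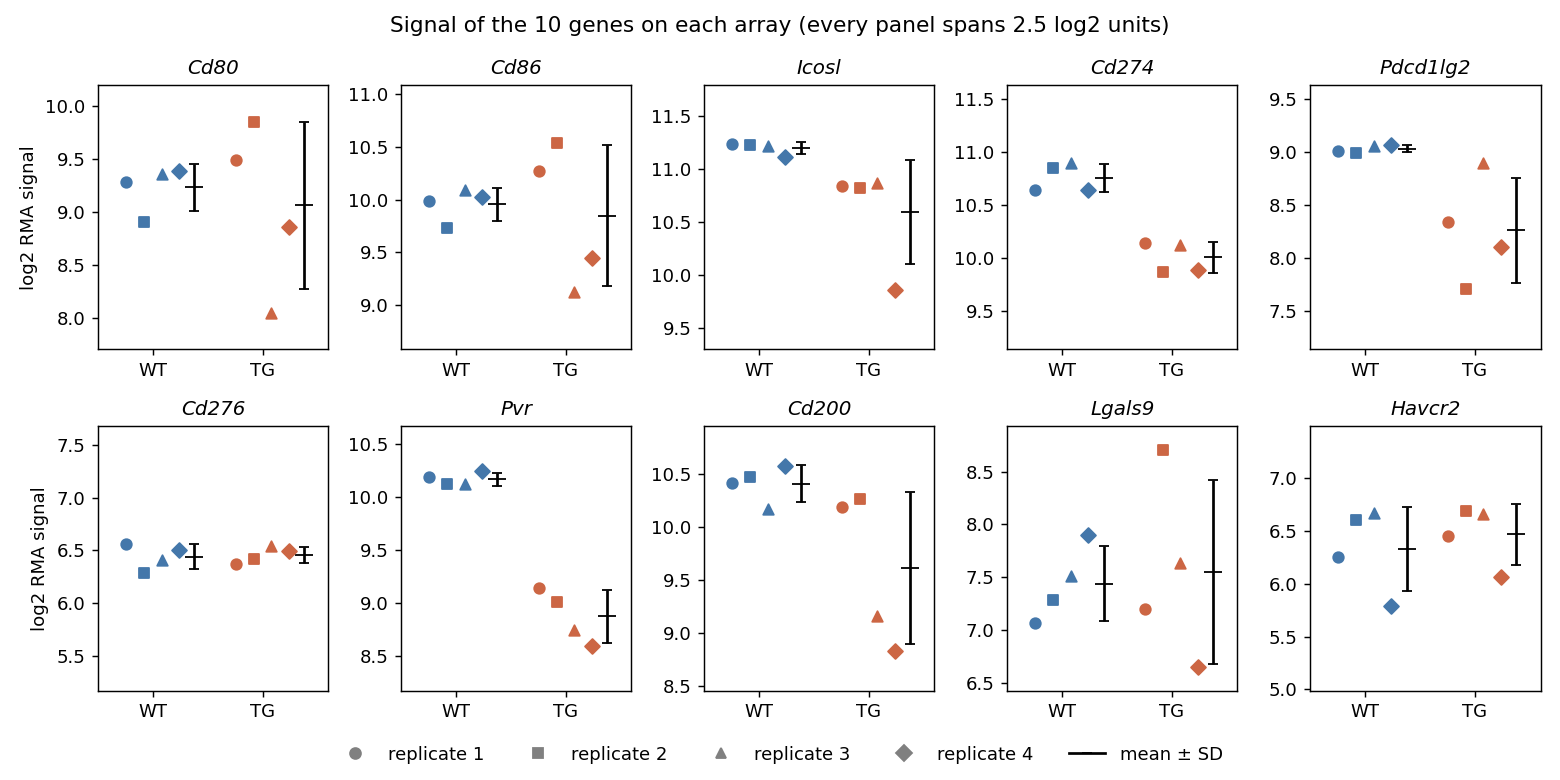
Log2 RMA signal of each of the 10 genes on the 4 wild-type (WT) and 4 transgenic (TG) arrays, with the mean and SD of each group beside the points. Pvr and Cd274 separate the groups with a small spread, while Cd80, Cd86, Cd200 and Lgals9 are spread widely among the TG arrays.

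Promoter sequences are printed for 3 of the genes, because Cd274, Pdcd1lg2 and Icosl were the genes with separated groups for which a promoter sequence was supplied: the 250 bases before the annotated start, 5′ to 3′ on the gene's strand, from RefSeq on GRCm38.p6. Capitals mark a match to the kB consensus, the motif of the NF-kB transcription factors.
Cd274 (chr19:29367188-29367437, + strand): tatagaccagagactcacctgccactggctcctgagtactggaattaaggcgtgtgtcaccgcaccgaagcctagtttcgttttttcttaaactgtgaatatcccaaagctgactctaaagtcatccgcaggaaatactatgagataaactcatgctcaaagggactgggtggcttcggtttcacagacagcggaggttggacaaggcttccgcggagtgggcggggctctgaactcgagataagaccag
Pdcd1lg2 (chr19:29410669-29410918, + strand): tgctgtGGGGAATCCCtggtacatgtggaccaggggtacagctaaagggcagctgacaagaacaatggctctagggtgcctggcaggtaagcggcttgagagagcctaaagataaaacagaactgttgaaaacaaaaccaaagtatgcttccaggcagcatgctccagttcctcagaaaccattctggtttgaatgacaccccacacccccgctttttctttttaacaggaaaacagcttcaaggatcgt
Icosl (chr10:78069118-78069367, + strand): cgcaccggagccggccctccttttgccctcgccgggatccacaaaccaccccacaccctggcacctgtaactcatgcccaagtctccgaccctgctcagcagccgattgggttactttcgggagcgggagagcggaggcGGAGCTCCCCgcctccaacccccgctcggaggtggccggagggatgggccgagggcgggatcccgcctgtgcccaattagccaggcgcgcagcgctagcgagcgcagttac

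Cd274 and Pdcd1lg2 lie side by side on chromosome 19, with 0 protein-coding genes between them in RefSeq. Windows were matched for 8 of the 10 genes, all but Pvr and Cd86. The kB consensus, searched on both strands, was found in 2 of these 8, at bases 244 to 235 before the start of Pdcd1lg2 and bases 111 to 102 before that of Icosl, against 7.25% of all 32851 windows of this length. The GAS motif of STAT factors, TTCNNNGAA, was in 0 of the 8 against 7.02% of all windows. The core of the interferon response element, GAAA repeated after any 2 bases, was in the window of Lgals9 alone, against 2.98% of all windows. No match says only that these letters are not in this window.

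The ligands of CD28 and CTLA-4 showed no common direction. Cd80 was at 9.29, 8.91, 9.36 and 9.39 on wild-type replicates 1 to 4 and at 9.50, 9.86, 8.05 and 8.86 on transgenic replicates 1 to 4. Cd86 was at 9.98, 9.73, 10.09 and 10.02 in wild type and at 10.27, 10.54, 9.13 and 9.45 in transgenic cDC. For both genes transgenic replicates 1 and 2 lay above all wild-type arrays and replicates 3 and 4 below all of them. The difference of Cd80 was therefore -0.17 (95% interval -0.89 to 0.55; limma adjusted p = 0.895) and that of Cd86 was -0.11 (-0.72 to 0.50; limma adjusted p = 0.922). The intervals include changes of more than 0.5 in either direction, so these arrays do not show that the genes were alike in both groups. The SD of Cd80 was 0.22 among wild-type and 0.79 among transgenic arrays, and that of Cd86 was 0.16 and 0.67.

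The 2 ligands moved together from array to array. Within an array, Cd80 minus Cd86 was -0.72 ± 0.08 in wild type and -0.78 ± 0.21 in transgenic cDC (SD, n = 4). That difference did not differ beyond the spread, at -0.06 between groups (95% interval -0.34 to 0.22; exact two-sided permutation test p = 0.714, where the smallest p of 70 assignments is 0.0286). It was 1 of 2 such pairs tested, and the adjusted p was 1 for both.

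Markers of the sorted subset and of other cells varied among the transgenic arrays too. The mean of 9 markers of cDC2, the cDC subset with CD11b, was 6.24, 6.38, 5.91 and 5.86 on transgenic replicates 1 to 4 against 6.08 to 6.21 in wild type. This mean lay above all wild-type arrays on replicates 1 and 2 and below all of them on replicates 3 and 4, as for Cd80 and Cd86. Single markers did not all follow it. On replicate 3 Cd209a (7.06) lay above its wild-type range of 6.38 to 6.95, while Sirpa, Irf4 and Epcam lay within theirs. Clec4a4 (4.11), Clec10a (3.40) and Itgae (5.19) lay below theirs there. On replicate 1 Clec4a4 (4.54) lay below its wild-type range of 5.17 to 5.80. Of 8 listed markers of cDC1, the cDC subset without CD11b, 7 were measured. Their mean level was 7.35, 7.81, 6.74 and 6.57 on transgenic replicates 1 to 4 against 7.04 to 7.58 in wild type. Here replicate 2 alone lay above all wild-type arrays, and replicates 3 and 4 lay below all of them. All 8 monocyte markers were measured, with a mean of 5.24, 5.47, 4.64 and 4.62 in transgenic cDC and 4.55 to 4.73 in wild type. For 8 plasmacytoid dendritic cell markers the mean was 7.39, 8.03, 6.87 and 6.94 in transgenic cDC and 6.71 to 7.28 in wild type. In these 2 lists replicates 1 and 2 lay above all wild-type arrays, as they did for Cd80 and Cd86, but replicates 3 and 4 lay within the wild-type range. The high monocyte means on replicates 1 and 2 lay mostly with Ly6c2 and Ccr2. Ly6c2, a monocyte surface marker, was at 8.28, 10.38, 5.81 and 7.11 in transgenic cDC and at 5.46 to 6.83 in wild type. Ccr2 was at 7.48, 7.85, 5.70 and 5.30 in transgenic cDC and at 5.85 to 6.29 in wild type. Between groups F13a1, S100a8 and Chil3 of the monocyte list had negative differences, as did Spib (-0.64) and Tcf4 (-0.21) of the plasmacytoid list. In all, 5 monocyte markers had positive and 3 negative differences, and 6 plasmacytoid markers positive and 2 negative. Csf3r was at 5.97, 6.06, 5.91 and 5.38 in transgenic cDC and at 5.12 to 5.46 in wild type (difference 0.58, limma adjusted p = 0.111). The neutrophil and monocyte gene S100a8 was dim throughout, at 3.48 to 3.81. S100a9 was at 5.54, 4.48, 4.25 and 3.76 in transgenic cDC and at 3.84 to 4.71 in wild type. The part of these lists in the spread of Cd80 and Cd86 was not tested.

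Icosl was lower on each transgenic array, by unequal amounts. It was at 11.24, 11.23, 11.22 and 11.11 in wild type and at 10.84, 10.82, 10.87 and 9.86 in transgenic cDC. Transgenic replicates 1 to 3 lay close together, 0.33 to 0.38 below the wild-type mean, while replicate 4 lay 1.34 below it. The difference was -0.60 (SE 0.21), 1.52-fold lower, and did not pass (limma adjusted p = 0.217). Without transgenic replicate 4 it was -0.36 and still did not pass (limma adjusted p = 0.107).

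Of the PD-1 ligands, Cd274 fell and Pdcd1lg2 had a difference of the same size with a wider spread. Cd274 was at 10.64, 10.85, 10.90 and 10.64 in wild type and at 10.14, 9.87, 10.12 and 9.89 in transgenic cDC. The groups did not overlap, and the lowest wild-type array lay 0.50 above the highest transgenic one. The fold was 1.68 in favour of wild type (95% interval of the log2 difference -1.01 to -0.49; limma adjusted p = 0.0152). The spread within the groups was alike, with SDs of 0.14 and 0.15. The call was lost without wild-type replicate 2 (log2 difference -0.72, limma adjusted p = 0.0582), without wild-type replicate 3 (-0.70, 0.0578) and without variance moderation (0.0775), and it held without transgenic replicate 4 (-0.71, 0.0264).

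Pdcd1lg2 was nearly constant in wild type, at 9.01, 8.99, 9.06 and 9.07, and ranged widely in transgenic cDC, at 8.34, 7.70, 8.89 and 8.11. Every transgenic array lay below every wild-type array, although replicate 3 did so by only 0.10. The difference was -0.77 (SE 0.21; 95% interval -1.24 to -0.30) and did not pass (limma adjusted p = 0.111). Without transgenic replicate 3 it passed (log2 difference -0.98, limma adjusted p = 0.0256). The SD was 0.04 in wild type and 0.50 in transgenic arrays.

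Whether the 2 neighbouring genes changed by unequal amounts was tested within arrays. Cd274 minus Pdcd1lg2 was 1.72 ± 0.14 in wild type and 1.74 ± 0.39 in transgenic cDC (SD, n = 4), a difference of 0.02 (95% interval -0.48 to 0.52; exact two-sided permutation test p = 1). The interval allows unequal change of up to about 0.5 in either direction. On the single transgenic arrays the orders were not the same: replicate 3 had the highest Pdcd1lg2 of the 4, and replicate 2 the lowest Pdcd1lg2 and the lowest Cd274.

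**Figure D2:**
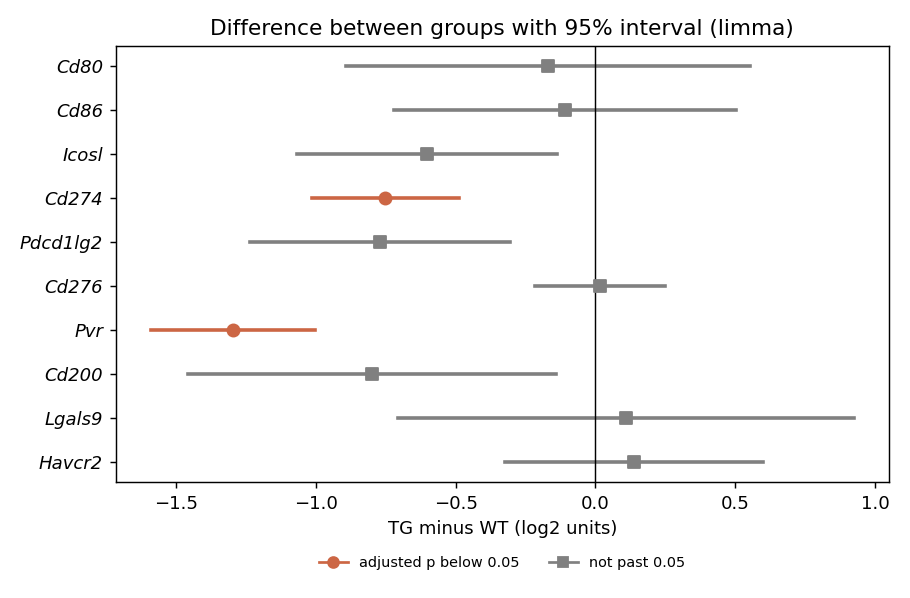
Difference between the group means (TG minus WT, log2 units) of each gene with its 95% interval from limma. The intervals of Cd274 and Pvr, the genes past an adjusted p of 0.05, lie below 0, as do those of Icosl, Pdcd1lg2 and Cd200, which did not pass.

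Pvr, the ligand of CD226, TIGIT and CD96, had the largest difference of the 10 genes and the most separated groups. It was at 10.19, 10.12, 10.12 and 10.25 in wild type and at 9.14, 9.01, 8.75 and 8.60 in transgenic cDC. The highest transgenic array lay 0.98 below the lowest wild-type array. The level was 2.46-fold lower in transgenic cDC (95% interval of the transgenic to wild-type ratio 0.33 to 0.50; limma adjusted p = 0.00249), and 12 of 22180 genes had a smaller p. Leaving out any 1 array kept the difference between -1.39 and -1.21, and it passed in each of these fits. Without transgenic replicate 4 it was -1.21 (limma adjusted p = 0.00413).

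Cd276, which encodes B7-H3, a B7 protein whose T cell receptor is not settled, varied little over the 8 arrays. It was at 6.56, 6.29, 6.41 and 6.51 in wild type and at 6.37, 6.42, 6.54 and 6.50 in transgenic cDC. The transgenic arrays all lay within the wild-type range, and the difference was 0.02 (95% interval -0.22 to 0.25; limma adjusted p = 0.972). Of the 10 genes it had the narrowest interval. Applying quantile normalization again turned its sign (-0.018).

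Cd200 was lower by 0.80 on average, and transgenic replicates 3 and 4 carried most of that difference. It was at 10.42, 10.48, 10.17 and 10.58 in wild type and at 10.19, 10.27, 9.17 and 8.84 in transgenic cDC. Replicates 1 and 2 lay within the wild-type range, and replicates 3 and 4 lay 1.01 and 1.34 below the lowest wild-type array. The difference did not pass (SE 0.30; 95% interval -1.46 to -0.14; limma adjusted p = 0.253). Without transgenic replicate 4 it was -0.54 (limma adjusted p = 0.358). CD200 is also made by endothelium and lymphocytes. The mean of 8 stromal and endothelial markers was 5.06 to 5.45 in transgenic and 5.19 to 5.30 in wild-type arrays, 4 of them with a positive and 4 with a negative difference. The endothelial gene Cdh5 was at 4.20 to 4.68 and 4.61 to 4.81, and Pecam1, also endothelial, at 5.51 to 6.32 and 5.51 to 5.88. The mean of 6 T cell markers was 5.18 to 5.34 and 5.22 to 5.77, and that of 7 B cell markers 5.45 to 5.94 and 5.48 to 5.92. Their part in the values of Cd200 was not tested.

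Galectin-9 and its partner TIM-3 did not differ beyond the spread. Lgals9 was at 7.06, 7.29, 7.51 and 7.90 in wild type and at 7.20, 8.70, 7.64 and 6.66 in transgenic cDC. Transgenic arrays held both the highest and the lowest value, and the difference of 0.11 (95% interval -0.71 to 0.92; limma adjusted p = 0.946) was -0.27 without transgenic replicate 2 (adjusted p = 0.756). On that array the mean of 8 plasmacytoid dendritic cell markers was 8.03, against 6.87 to 7.39 on the other transgenic and 6.71 to 7.28 on the wild-type arrays. Siglech, which marks those cells, was at 7.52 there and at 5.18 to 6.29 on the other 7 arrays. Ly6d (7.47), Klk1 (8.51) and Cox6a2 (6.72) of that list were also highest on that array. Bst2 (10.46) and Pacsin1 (5.86) lay above their wild-type ranges there. Spib and Tcf4 did not follow: Spib was at 9.95 on that array against 10.37 to 10.66 in wild type, and Tcf4 at 7.74 lay within its wild-type range. The cDC1, cDC2, monocyte, macrophage, stromal and NK cell lists also had their highest mean on transgenic replicate 2. The mean of 7 measured NK cell markers was 7.50 there, against 6.14 to 6.69 on the other transgenic and 5.58 to 7.04 on the wild-type arrays. In the NK cell list 7 differences between groups were positive and 0 negative. The part of these lists in the level of Lgals9 was not tested.

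Havcr2 was at 6.25, 6.60, 6.67 and 5.79 in wild type and at 6.45, 6.68, 6.66 and 6.06 in transgenic cDC. The groups overlapped, and the difference was 0.14 (95% interval -0.33 to 0.60; limma adjusted p = 0.860). Without wild-type replicate 4, the lowest of the 8 arrays, it was -0.042 (limma adjusted p = 0.965).

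**Figure D3:**
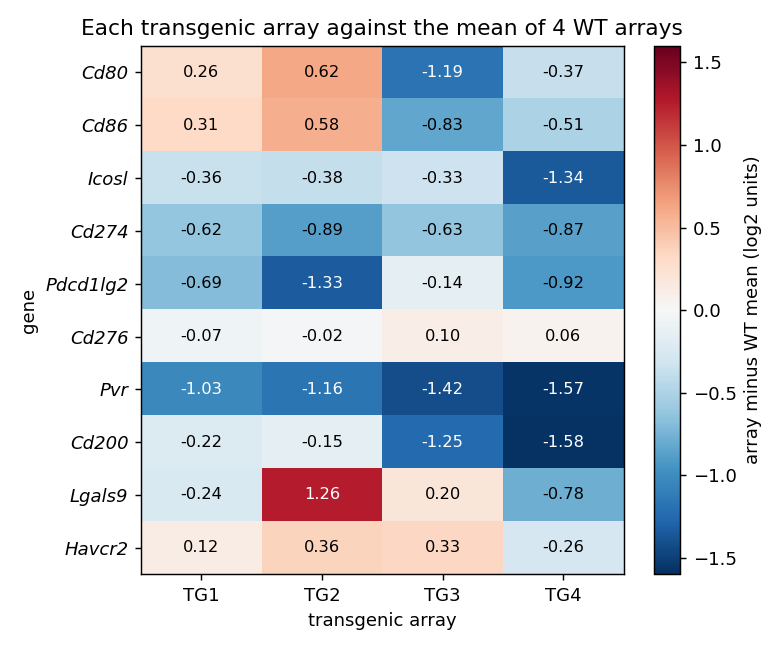
Each transgenic array (columns) minus the mean of the 4 wild-type arrays, in log2 units, for each gene (rows), with blue for lower and red for higher. Pvr, Cd274, Pdcd1lg2, Icosl and Cd200 are negative on all 4 arrays, and Cd80 and Cd86 are positive on TG1 and TG2 and negative on TG3 and TG4.

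The 4 transgenic pools differed in how many of the 10 genes they held low. Transgenic replicate 4 was below the wild-type mean for 9 genes and below every wild-type array for 8, replicate 3 for 7 and 7, replicate 1 for 7 and 4, and replicate 2 for 6 and 4. Of all genes, 46.3% lay below the wild-type mean on replicate 4, against 52.9% to 53.7% on the other 3 transgenic arrays, and 25.1% to 26.6% lay below every wild-type array on each of the 4. Replicate 2 lay above every wild-type array for 4 genes (Cd80, Cd86, Lgals9 and Havcr2), against 23.8% of all genes on that array. For Havcr2 the margin was narrow, at 6.684 against a wild-type high of 6.668. Replicate 1 lay above for 2 genes, a share near its 21.5% of all genes, and replicates 3 and 4 for 0, against 22.5% and 31.6%. Pvr, Cd274, Pdcd1lg2 and Icosl were below every wild-type array on all 4 pools. The SD among transgenic arrays exceeded that among wild-type arrays for 8 of the 10 genes, all but Cd276 and Havcr2, against 62.1% of all genes. The ratio of the SDs was largest for Pdcd1lg2 (14.1) and Icosl (8.31) and had a median of 3.82 over the 10 genes and 1.24 over all genes.

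The macrophage list was the only list of other cells whose group means did not overlap, and it did so through 1 gene. Of 8 listed macrophage markers, 7 were measured, with a mean of 5.42 to 5.64 in transgenic and 5.22 to 5.42 in wild-type arrays. Adgre1, which encodes F4/80, rose (log2 difference 1.29, SE 0.19; limma adjusted p = 0.0128). Without Adgre1, left out after its value was seen, the mean of the other 6 overlapped, at 5.13 to 5.31 and 5.06 to 5.28. The complement genes C1qa, C1qb and C1qc were at 6.44, 6.44 and 5.37 in wild type and at 6.27, 6.55 and 5.67 in transgenic cDC. Single markers of 3 other lists rose too: the stem cell factor receptor gene Kit of the cDC list (0.92, SE 0.13), the plasmacytoid marker Bst2 (0.76, SE 0.13) and the NK receptor gene Klrd1 (from a mean of 9.18 to 10.68), with limma adjusted p of 0.0100, 0.0204 and 0.00644. The 8 measured general cDC markers had a mean of 10.71 to 11.07 in transgenic and 10.92 to 11.05 in wild-type arrays. Of these, H2-Eb1 (log2 difference -0.38), Zbtb46 (-0.42), Flt3 (-0.37) and H2-Ab1 (-0.25) were lower at an unadjusted p below 0.05, and none of the 4 passed (limma adjusted p 0.175 to 0.352). With Kit, 5 of the 8 reached an unadjusted p below 0.05 in limma, against 13.2% of all genes in either direction. The groups did not overlap for H2-Eb1, Flt3 and H2-Ab1, 3 of the 8 as lower against 4.94% of all genes. The part of these lists in the falls of Pvr and Cd274 was not tested.

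**Figure D4:**
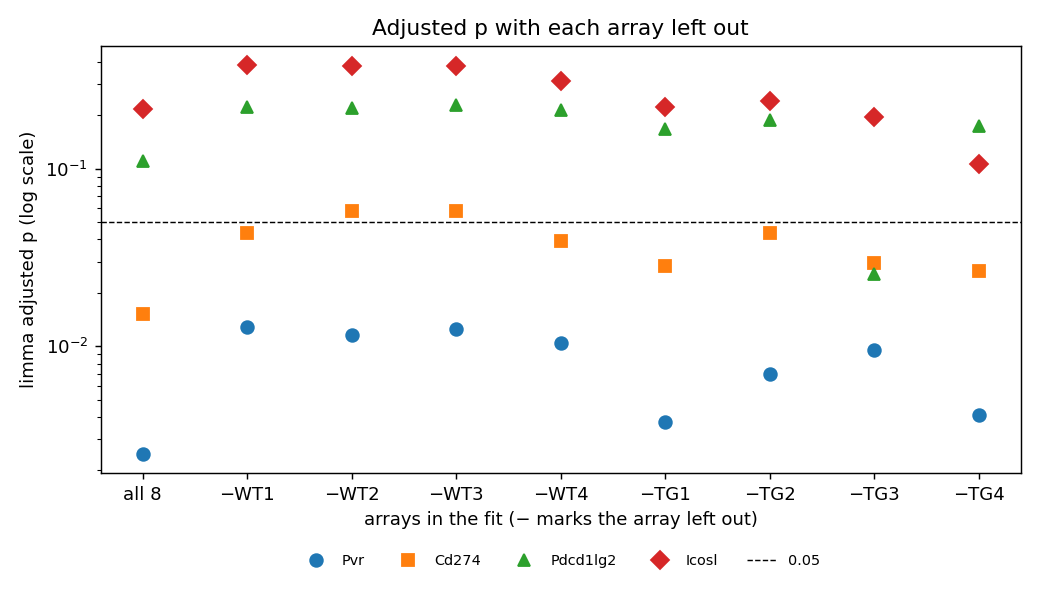
Limma adjusted p (log scale) of the 4 genes with separated groups, with all 8 arrays and with each array left out. Pvr stays below 0.05 throughout, Cd274 crosses it without WT2 and without WT3, Pdcd1lg2 lies below it only without TG3, and Icosl lies above it throughout.

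Other genes of the same interactions were read from lists. Of 13 measured genes listed with the B7 family and related ligands, 0 passed limma's test, and the median difference was -0.02. At an unadjusted p below 0.05 in limma, 3 were lower and 0 higher (13.2% of all genes reach it in either direction). The 3 were Tnfrsf14, which encodes HVEM (7.73 ± 0.25 and 7.09 ± 0.16; limma adjusted p = 0.0631), the adhesion ligand gene Icam1 (10.90 ± 0.10 and 10.48 ± 0.19; 0.132) and Ceacam1, whose product binds TIM-3 (7.85 ± 0.36 and 7.31 ± 0.19; 0.191), each as wild type and transgenic with SD, n = 4. The groups did not overlap for Tnfrsf14, Icam1 and Btn1a1, 3 of the 13 and all lower, against 4.94% of all genes. By difference the receptor gene Btla was lowest (-0.74, limma adjusted p = 0.607), at 5.37 to 8.18 in transgenic cDC and 7.43 to 7.85 in wild type. The highest statistics were those of Vsig4 (difference 0.14) and Cd48 (0.29). The inhibitory ligand gene Vsir (VISTA) differed by -0.02.

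Genes listed as receptors of the ligands did not pass. Of 10 measured, 0 passed limma's test and 1, Havcr1, had an unadjusted p below 0.05, a share near the 13.2% of all genes. Havcr1, a TIM gene for which no ligand was named above, was at 4.75 ± 0.19 in wild type and 4.15 ± 0.29 in transgenic cDC (SD, n = 4, limma adjusted p = 0.104). These levels lie below the median of every array, 5.04 to 5.15. The median difference of the list was -0.13. Pdcd1, which encodes PD-1, was at 4.55 and 4.28, and Tigit and Cd200r1 had the highest statistics (differences 0.53 and 0.35). Among 9 nectin and TIM partner genes, 0 passed in limma, and 0 reached an unadjusted p below 0.05. By moderated statistic Bag6 (difference -0.39) and Nectin1 (-0.25) were lowest and Hmgb1 (0.27) and Cadm1 (0.48) highest, while by difference Timd4 (-0.48) was lowest, and Nectin2, whose product shares receptors with CD155, differed by -0.18.

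Genes listed for how long B7 proteins, or their receptor CTLA-4, stay at the surface did not pass either. Of 10 measured, 0 passed limma's test and 1, Hip1r (difference 0.32; limma adjusted p = 0.374), had an unadjusted p below 0.05, again a share near that of all genes. Marchf8 (0.21) had the next highest statistic. Its relative Marchf1, the ubiquitin ligase that removes CD86 and class II from the surface, differed by -0.01 and Cd83, which counters it, by -0.04. Cmtm6, which protects PD-L1 from breakdown, differed by -0.12 (95% interval -0.52 to 0.29), and Lrba, which recycles CTLA-4, by -0.24.

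Of 14 measured transcription factors tied to B7 genes, Irf1 fell, 0 rose, and 13 did not pass, beside 0.848% of all genes that passed as lower. Their median difference was -0.17, and 11 were negative against 50.3% of all genes. At an unadjusted p below 0.05 in limma there were 6, of which 1 was higher, against 13.2% of all genes in either direction. Irf1, an interferon-induced factor known to drive Cd274, was at 9.85, 9.79, 9.96 and 9.84 in wild type and at 9.32, 8.96, 9.44 and 8.99 in transgenic cDC. The groups did not overlap, and the difference was -0.68 (SE 0.13; limma adjusted p = 0.0330). This call is weakly held: it passed in 1 of 8 fits that left out an array, the one without transgenic replicate 3, with a limma adjusted p of 0.0303 to 0.10 over the 8, where wild-type replicate 1 gave the highest. In 5 of the 14 the groups did not overlap, all lower, against 4.94% of all genes. Among these were the NF-kB subunit genes Nfkb2 (10.02 and 9.54, limma adjusted p = 0.0622) and Rela (10.85 and 10.36, 0.142), Stat6 (10.01 and 9.29, 0.113) and Irf8 (10.58 and 10.09, 0.161). Rel differed by -0.17 and Relb by -0.19, while Hif1a (0.40) and Myc (0.47) had the highest statistics and did not pass.

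**Figure D5:**
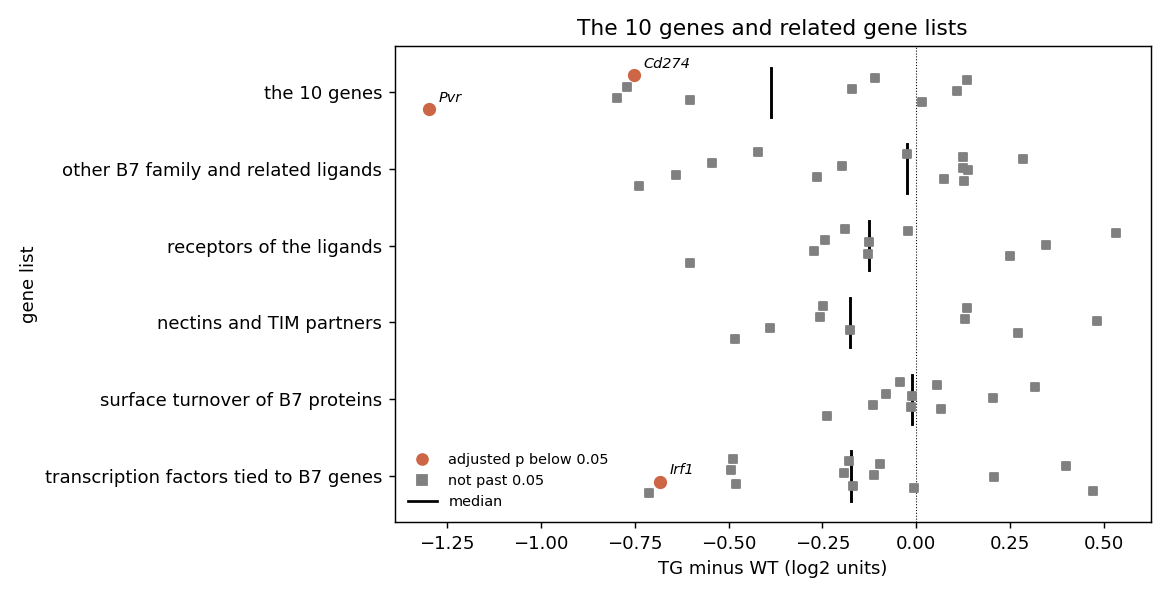
Difference between the group means (TG minus WT, log2 units) of each gene of the 10 and of the 5 related lists, with the median of each list as a bar. Pvr, Cd274 and Irf1 are past an adjusted p of 0.05, and the list medians lie between -0.39 and -0.01.

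The genes whose profile over the 8 arrays was most like those of Pvr and Cd274 were found by the root-mean-square (RMS) difference between profiles centred on their own means. Nearest to Cd274 were Dnm1l, a GTPase of mitochondrial fission (RMS 0.06, difference between groups -0.66), Zfc3h1 (0.08, -0.71), Swap70, a regulator of actin in leukocytes (0.08, -0.81), Sema6d, a semaphorin (0.09, -0.82), and Poglut1 (0.09, -0.74). Nearest to Pvr were the collagen-modifying enzyme gene P3h1 (0.12, -1.26), Arhgap31 (0.12, -1.10), Gpr183, which encodes the oxysterol receptor EBI2 (0.15, -1.08), Tnfrsf4, which encodes OX40 (0.17, -1.01), and the actin cross-linker gene Flna (0.18, -1.19). Among the other members of the 10, Pdcd1lg2 (0.25) and Icosl (0.28) were nearest to Cd274, and Cd274 (0.33) and Cd200 (0.40) nearest to Pvr. These genes were chosen for their likeness, so their differences are descriptions.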

How the data were processed

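Gene expression was read from the deposited log2 values of 8 arrays, which the authors made in Partek with RMA, as the submitters' processing notes say. Versions, filters and build: not given in the sources used here. RMA makes the arrays' distributions alike, so a shift of all genes would not be seen. Of 34390 probe sets, 23521 name 1 gene and were used, 1814 name several and 9055 none. For genes with several probe sets the one with the highest mean was kept, which left 22180 genes. Of the probe sets used, 23328 matched a GRCm38.p6 table, which changed 0 symbols. No filter on signal was applied, and 0 columns were left out. The arrays' number limits the precision of every value.

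Transgenic minus wild type was fitted over all genes in R 4.3.3 by limma 3.58.1 (lmFit, eBayes), with Benjamini-Hochberg adjustment and a threshold of 0.05. Intervals are 95% intervals of that fit, and for within-array pairs those of a linear model. The fit was tested on simulated data. The 10 genes and all lists were chosen with earlier results of these data known. Genes named from a list are those past the threshold, the 2 highest and the 2 lowest by statistic, and for likeness the 5 nearest; other genes were named after their values were seen. Some listed genes are not reported here. Alternatives covered variance moderation, filters, normalization, probe sets, array weights, the replicate block, the threshold and leaving out each array.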

Additional observations from a re-analysis of the deposited data

Results flagged for a closer look

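In 20 sets of 4 arrays (10 genes in 2 groups), Icosl stood out in both groups by Dixon's test, which flags about 1 in 20 sets by chance. On transgenic replicate 4 Icosl was at 9.86, against 10.82 to 10.87 on the other transgenic arrays. On wild-type replicate 4 it was at 11.11, against 11.22 to 11.24 on the others, a gap that is small in size because the wild-type values lie so close together.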

How the results depend on the processing

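No call of a rise was made among the 10 genes in any of 20 alternatives, and Pvr passed in all 20 (adjusted p 0.00127 to 0.0456 in limma). The count of lower genes was 2, and 1 without variance moderation, where all genes gave 35 calls against 374. It ran from 1 to 3 when arrays were left out, with all-gene calls of 106 to 133 without a wild-type and 187 to 379 without a transgenic array. The lost gene was Cd274 and the added one Pdcd1lg2. Signs turned for genes near 0: Cd276 was at -0.018 after quantile normalization again, and leaving out arrays gave Cd276 -0.033 to 0.055, Lgals9 -0.27 to 0.41, Havcr2 -0.042 to 0.27, Cd80 -0.43 to 0.17 and Cd86 -0.34 to 0.13. Over the same fits Cd80 minus Cd86 ran from -0.13 to 0.038 and Cd274 minus Pdcd1lg2 from -0.12 to 0.19. The transcription factor list had 1 call, 2 with a trended and robust prior, and 0 to 1 with arrays left out, and the receptor list 0 to 1. Same-numbered arrays showed little shared deviation (correlations across genes of -0.03, -0.03, 0.08 and -0.02). The best match of wild-type replicate 3 was the transgenic array of its own number, and for replicates 1, 2 and 4 it was not. Correlations over 4 arrays per group cannot exclude a pairing, and the labels do not state one. With the replicate block all genes gave 187 calls and the transcription factor list 0, and Pvr (adjusted p 0.0221 in limma) and Cd274 (0.0492) passed. A sign-flip test of the pairs with the replicate block has 0.125 as its smallest p. The causes of these changes were not tested. Signal over background was not measured in the values used here, so its limit on weak genes is unknown.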
